A study of Homo sapiens with 6 samples.

Results

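Clustered glucocorticoid receptor (GR) sites are places where GR was found with at least 2 other GR positions within 10 kb. They were chosen from the dexamethasone-treated GR cell as follows. Peaks that overlapped by at least 1 bp over the 6 dexamethasone peak lists were merged into 43713 sites, of which 22935 had a peak in all 3 GR-cell lists. Among these, 843 (3.68%) had at least 2 other such sites centred within 10 kb and are called clustered sites or members here. A further 4812 sites had 1 such neighbour and 17280 had none. Counting neighbours found in at least 2 of the 3 GR-cell lists, rather than in all 3, gave 1283 members. The choice used the GR-cell lists, so the number, spacing and place of the members describe the choice and carry no test. The MR/GR-cell lists entered only the merging of peaks, and merging without them gave 844 members.

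GR is a steroid hormone receptor that stays largely in the cytoplasm until a glucocorticoid binds it, then enters the nucleus and binds DNA at glucocorticoid response elements, mostly in enhancers far from promoters. Enhancers near each other can act on the same gene, and several well-known GR target genes have more than 1 GR-bound enhancer. The mineralocorticoid receptor (MR) is a close relative that recognises the same elements and can pair with GR on DNA.

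Binding was measured by ChIP-seq with a GR antibody in a pair of stable lines made for the study from the U-2OS human osteosarcoma line. The GR cell was compared with the MR/GR cell, which co-expresses MR, with cells given either DMSO as vehicle or 100 nM of the synthetic glucocorticoid dexamethasone, for 2 hr. Each combination of line and treatment is 1 sample with 3 peak lists, each line is a single stable line, and the sources used here do not name the promoters that drive the receptors. Nothing in the labels ties the 3 lists to separate cultures, and the p-values therefore cover list-to-list spread alone, which could be technical. GR-cell dexamethasone lists ranged from 26191 to 37650 peaks and MR/GR-cell ones from 3713 to 10459, at a read depth that is unknown. The lists give positions (hg19, counted here from 1) without heights, so a site that is not listed in the MR/GR cell may be unbound or below the calling threshold. No gene names or sequences are given for the sites, since a genome and annotation of hg19 were not used here.

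Members lay several kb apart and most loci were small. Members whose centres were within 10 kb of the next member were stitched into 413 loci. Of these, 204 held a single member, 29 held 2, 153 held 3 and 27 held 4 or more. A locus with a single member is a site between neighbours that are too far from each other to count as members, so each locus was also described with its flanking sites, that is, every site in all 3 GR-cell lists within 10 kb of the next. Together with 510 flanking sites the loci then held 1353 sites, and 330 of the 413 had exactly 3. Their span ran from 2.52 to 43.4 kb with a median of 12.3 kb. Neighbouring sites within them were a median of 5.80 kb apart (quartiles 3.34 and 7.67 kb), and the closest pair was 0.894 kb apart. The count of members rested on the GR-cell lists used: with sites required in both remaining lists it was 870 with list 1 left out, 976 with list 2 left out and 1400 with list 3, the shortest, left out.

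The distances between neighbouring sites did not fall off smoothly. Over all sites in 3 GR-cell lists, 37 pairs were centred under 1 kb apart and 415 were 1 to 2 kb apart. The number per 1-kb step then fell to 222 at 4 to 5 kb and rose to 454 at 5 to 6 kb. GR-cell sites found in only 1 or 2 lists showed the same step around sites found in all 3, with 347 pairs at 4 to 5 kb and 554 at 5 to 6 kb. Within single GR-cell lists, the closest peak centres were 687 to 811 bp apart. How the peak caller treated nearby peaks is not given in the sources used here, and its part in the spacing of the members was not tested.

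**Figure D1:**
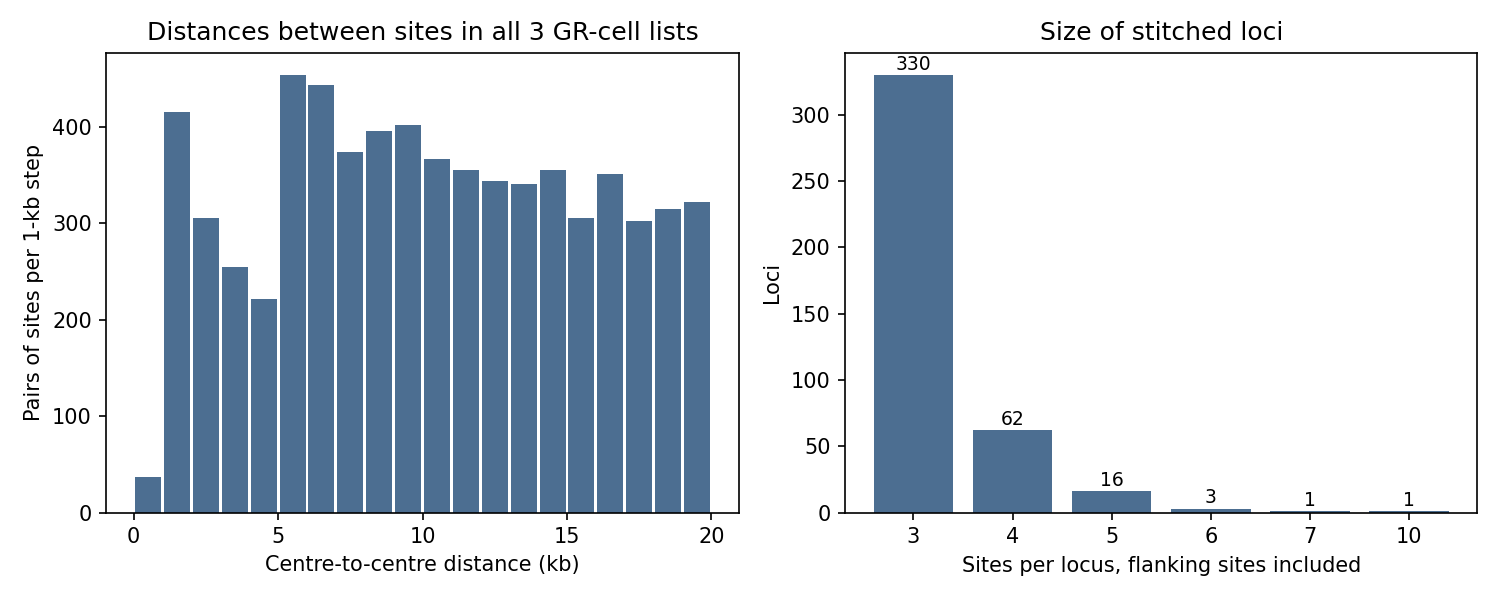
Left, number of pairs of sites in all 3 GR-cell lists per 1-kb step of centre-to-centre distance, with 222 pairs at 4 to 5 kb and 454 at 5 to 6 kb. Right, number of loci by the number of sites they hold with flanking sites included; 330 of 413 loci hold 3 sites.

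The members were spread over all 22 autosomes and X. Their share of the sites that all 3 GR-cell lists had on a chromosome was lowest on chromosome 4 (2.53%) and highest on chromosome 19 (5.13%). Chromosome 2 held the most, with 100 members in 43 loci, and chromosome 1 had 78 in 41 loci. Most loci stood alone: 41 of 413 (9.93%) had another locus within 100 kb and 138 (33.4%) within 1 Mb. The wider region around members was slightly richer in sites, with a median of 3 other sites 10 to 100 kb away against 2 for sites with no neighbour. Merged members were a median of 432 bp wide and sites with no neighbour 437 bp, and each list gives its peaks nearly 1 fixed width, so width carries no measure of strength.

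In the MR/GR cell, clustered sites were found more often than sites with no neighbour. At least 2 of the 3 MR/GR dexamethasone lists had a peak at 286 of 843 members, or 33.9% (Wilson 95% interval 30.8 to 37.2, which covers counting error over sites only). A site meeting this criterion is called held. Over all 22935 sites in 3 GR-cell lists the share was 22.5%, and over the 17280 sites with no neighbour it was 20.9% (20.3 to 21.5). All 3 MR/GR lists had a peak at 198 members (23.5%, against 13.2% of all sites). At least 1 list had one at 396 members (46.98%, against 34.4%), and no list at 447 (53.0%, against 65.6%), so most members had no called peak in the line that co-expresses MR.

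Each MR/GR list showed the same direction. List 1, the shortest, had a peak at 25.03% of members and 13.1% of sites with no neighbour (14.5% of all sites). List 2, the longest, had one at 44.5% and 28.9% (30.9% of all). For list 3 the shares were 34.9% and 22.9% (24.6% of all). The mean over lists was 34.8% ± 9.73 for members and 21.6% ± 7.96 for sites with no neighbour (SD, n = 3 lists). The member share of list 1 thus lay below the no-neighbour share of list 2, while within every list the members were higher. The within-list difference was 13.2 ± 2.12 percentage points (n = 3 lists, higher in 3 of 3; two-sided exact sign-flip permutation p = 0.25, the minimum with 3 lists). As a ratio, the member share was 1.91, 1.54 and 1.52 times the no-neighbour share in lists 1, 2 and 3. Both kinds of site had a peak in all 3 GR-cell lists. Peak height is not in the lists, and whether members were also the stronger peaks was not tested.

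The share grew with the number of neighbours. Sites with 1 neighbour were held in 26.5% of cases (25.2 to 27.7), those with 2 neighbours in 32.9% (245 of 744, 29.6 to 36.4) and those with 3 neighbours in 40.4% (36 of 89, 30.9 to 50.8). Only 10 sites had 4 or more, and 5 of them were held. The order from 0 to 3 neighbours was the same in each MR/GR list, running from 13.1% to 31.5% in list 1, from 28.9% to 55.1% in list 2 and from 22.9% to 40.4% in list 3. The interval for 3 neighbours overlaps that for 2, so this last step lies within counting error.

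**Figure D2:**
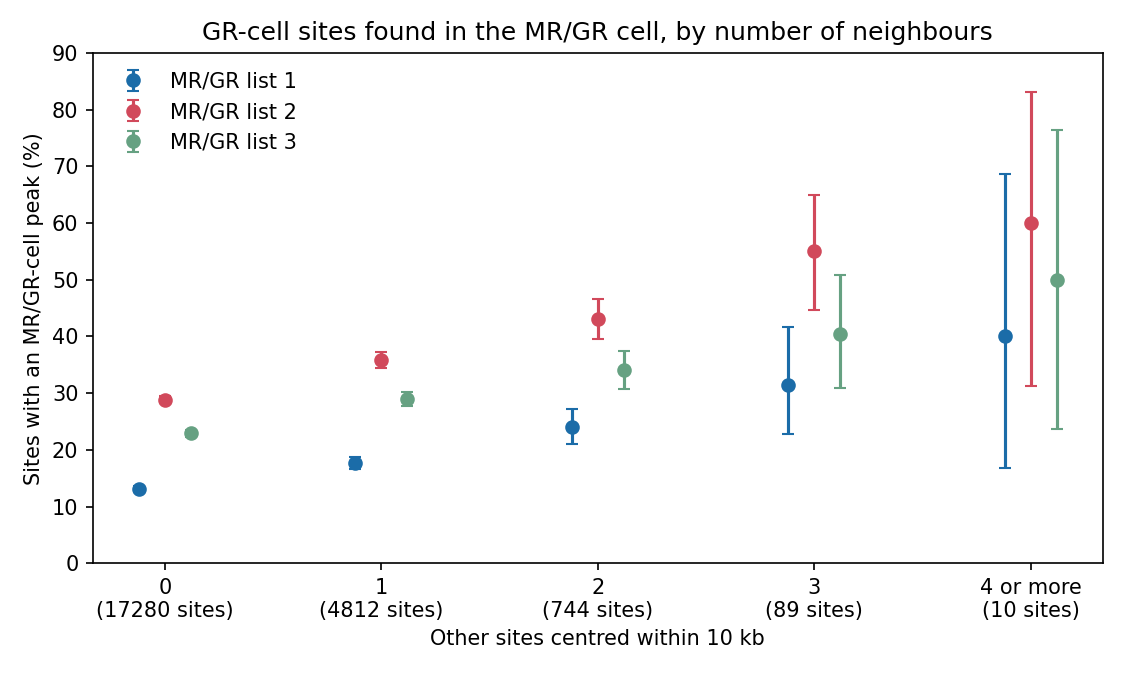
Percentage of sites in all 3 GR-cell lists that had a peak in MR/GR list 1, 2 or 3 after dexamethasone, by the number of other such sites centred within 10 kb. Bars are Wilson 95% intervals over sites; in each list the share was higher at 3 neighbours than at 0, for example 31.5% against 13.1% in list 1.

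The 10-kb limit did not mark a boundary in this measure. Members whose second-nearest site lay 9 to 10 kb away, just inside the limit, were held in 25.1% of cases (51 of 203), and sites whose second-nearest lay 10 to 11 kb away, just outside, in 32.2% (66 of 205). Tighter groups were held more often, with 43.8% (35 of 80) where the second-nearest site was 2 to 5 kb away. Held shares then went from 32.8% at 5 to 10 kb to 30.6% at 10 to 20 kb, 25.7% at 20 to 50 kb and 18.0% beyond 100 kb. Distance to the nearest site gave a shallower gradient, from 29.7% within 2 kb to 16.6% beyond 100 kb.

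The wider region moved with retention too. Members with 5 or more other sites 10 to 100 kb away were held in 41.7% of cases (78 of 187), and those with 0 or 1 in 31.4% (70 of 223). Among sites with no neighbour within 10 kb the same split gave 26.5% and 18.0%. At each of these levels members were held more often than sites with no neighbour, by 15.2 and 13.4 percentage points, and the level between gave 31.9% against 22.8%.

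Chromosomes varied. Members were held more often than sites with no neighbour on 19 of 23 chromosomes. The exceptions were chromosomes 14 (20.6% against 20.99%), 17 (25% against 26.1%), 18 (15.4% against 21.3%) and 19 (19.0% against 20.7%), each with between 21 and 36 members. List by list, chromosome 19 was no exception, with members higher by 2.77, 0.611 and 15.1 points in lists 1, 2 and 3, and on chromosome 14 they were higher in list 2 by 3.07 points. Chromosome 9 had the highest held share, 51.4% (18 of 35). The mean within-list difference of 13.2 percentage points was 12.4 when taken within each chromosome and averaged. On chromosome X, 5 of 20 members were held (25%), against 10.5% of its sites with no neighbour.

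Less reproducible GR-cell sites followed the same order by the number of sites in all 3 lists near them. Those nearby sites need not be members. Of sites in 2 GR-cell lists, 8.30% (19 of 229, 5.38 to 12.6) were held when at least 2 sites in all 3 lists lay within 10 kb, 4.97% (74 of 1490) when 1 did and 2.89% (165 of 5711) when none did. Of sites in 1 GR-cell list, the shares were 3.03% (10 of 330), 2.40% (48 of 2004) and 1.69% (148 of 8754). These sites were not used to choose the members, although their peaks come from the same lists, and the interval of the 10 sites (1.65% to 5.49%) includes both lower shares. Inside the span of the 413 loci there were 40 such GR-cell sites, 0.216% of all 18518, in 37 loci.

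Loci differed in how many of their sites were held. Of the 209 loci with at least 2 members, 131 (62.7%, 55.9 to 69.0) had at least 1 held member. In 111 (53.1%) some but not all members were held, in 78 none were and in 20 (9.57%) all were. Only 11 had every member in all 3 MR/GR lists, and 50 (23.9%) had no MR/GR peak at any member. For single sites, the held share was 33.9% of members and 22.5% of all sites in 3 GR-cell lists. The locus counts that these shares alone would give were not computed. More members give more chances of a held one: at least 1 was held in 97 of 153 loci of 3 members (63.4%) and in 22 of 27 loci of 4 or more (81.5%). Without MR/GR list 2 or list 3, with a peak required in both remaining lists, the share of 62.7% fell to 48.8% or 49.8%.

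Held shares at the middle and the ends of a locus lay within counting error of each other. In the 330 loci of exactly 3 sites, the middle site was held in 34.8% of cases (115 of 330, 29.9 to 40.1) and the outer sites in 31.7% (209 of 660, 28.2 to 35.3), with intervals that overlap. Flanking sites over all loci were held in 31.6% of cases (161 of 510, 27.7 to 35.7), close to the 33.9% of the members. Each flanking site has 1 neighbour, and sites with 1 neighbour outside the loci were held less often, in 25.9% (1113 of 4302, 24.6 to 27.2). The reason was not tested. Of the 330 loci, 128 kept no site, 105 kept 1, 72 kept 2 and 25 kept 3. No site held was thus the most common single count, and partial retention, 1 or 2 of 3 sites pooled, made up 53.6%.

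Neighbouring sites tended to be held together. A member whose nearest member in the locus was held was itself held in 47.5% of cases (114 of 240), against 26.3% (105 of 399) where the nearest was not held, a difference of 21.2 percentage points. Sites of a locus share their region and their libraries, so this is given as a description with no test. Single MR/GR lists were read over another set, the 940 pairs of adjacent sites of the loci with flanking sites included. There, with a peak in the list in place of the held criterion, the difference was 16.2 to 22.0 percentage points with both sites read from the same list. With the neighbour read from one list and the site from another it was 14.9 to 20.6 over the 6 combinations, and all 3 lists come from 1 sample. Over neighbouring sites in all 3 GR-cell lists the difference shrank with distance, from 34.9 points (54.3% against 19.4%, 452 pairs) within 2 kb to 26.4 at 2 to 5 kb, 13.6 at 5 to 10 kb, 11.2 at 10 to 20 kb, 5.01 at 20 to 50 kb and 2.56 at 100 to 1000 kb. Even within 2 kb, 123 of 452 pairs (27.2%) had only 1 site held.

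**Figure D3:**
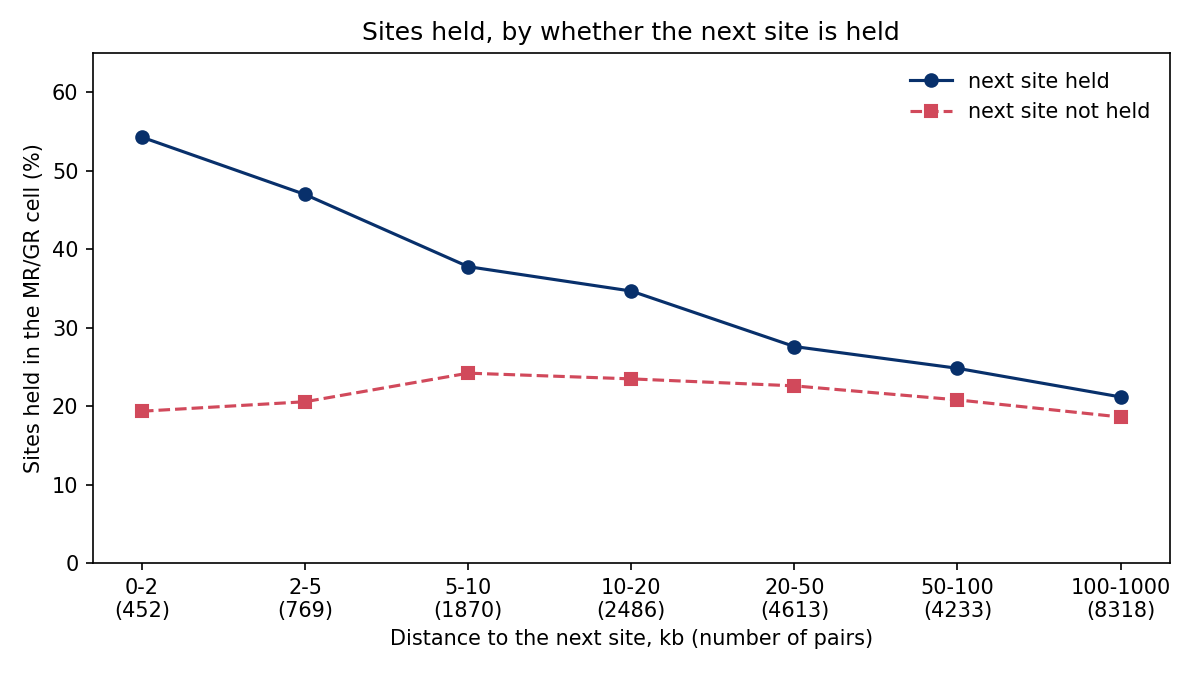
Percentage of sites in all 3 GR-cell lists that were held in the MR/GR cell when the next site along the chromosome was held (circles) or not held (squares), by the distance between them; the number of pairs is in parentheses. The lines are 34.9 points apart within 2 kb and 2.56 points apart at 100 to 1000 kb.

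The loci with the most members showed every degree of retention. The locus with the most members was on chromosome 2 (28825743 to 28863029), with 9 members over 37.3 kb. Its members had peaks in 0, 0, 3, 3, 1, 3, 2, 3 and 0 MR/GR lists in order along the chromosome, so the 5 held members lay in its interior and both ends had no MR/GR peak. On chromosome 5 (66544502 to 66564414), 6 members over 19.9 kb had peaks in 3, 0, 3, 0, 0 and 3 lists. There, fully held and unlisted members were interspersed, including the neighbouring pair at 66553293 to 66553716 (3 lists) and 66554348 to 66554771 (0 lists). A locus of 6 members over 25.6 kb on chromosome 3 (156822333 to 156847888) kept only its first member, in 2 lists. The contrast with the chromosome 5 locus, of the same number of members, was 3 held against 1.

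Loci of 5 members ranged from none to all held. On chromosome 11 (114025142 to 114042493), all 5 members and the flanking site had a peak in all 3 MR/GR lists, over 25.2 kb in all. On chromosome 6 (129446390 to 129463135) the members were in 0, 3, 2, 1 and 3 lists, and on chromosome 15 (39563820 to 39580460) in 0, 3, 1, 3 and 0. By contrast, the locus on chromosome 17 (80225300 to 80243468) had 1 member in 1 list and none held. The chromosome 2 locus at 20683089 to 20701595 had 1 of its members held, in 2 lists. Among loci of 4 members, that on chromosome 14 (80848235 to 80857740) kept 1 member in 2 lists. The second locus on chromosome 6 (35690222 to 35700042) had all 4 members and its flanking site in all 3 lists.

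Loci of at least 3 members that were lost or kept as a whole stood at the extremes. Of the 180 loci of at least 3 members, 39 had no MR/GR peak at any member and 7 had every member in all 3 MR/GR lists. For single sites, no MR/GR list had a peak at 53.0% of members and 65.6% of all sites in 3 GR-cell lists. All 3 had one at 23.5% and 13.2%. How many such loci these shares alone would give was not computed. The lost loci were led by chromosome 2, 19015325 to 19025427, with 4 members and a flanking site, none with an MR/GR peak. After it came 3-member loci on chromosome 4 (9998400 to 10008369) and on chromosome 13 (112275339 to 112280682). A pair of like size followed, on chromosome 5 (125068671 to 125074020) and on chromosome 18 (46178004 to 46184184). The loci on chromosomes 13, 5 and 18 spanned 5.34, 5.35 and 6.18 kb and had no flanking site, so no site in all 3 GR-cell lists remained listed there in the MR/GR cell. On chromosome 4 the flanking site was held, in 2 lists. The kept loci were led by those on chromosomes 11 and 6 above, followed by a 3-member locus on chromosome 10 (74002314 to 74008941), another on chromosome 22 (41806333 to 41814358), and a last on chromosome 12 (52900847 to 52910417). The flanking site was in 3 MR/GR lists on chromosome 10 and in 1 on chromosome 12.

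**Figure D4:**
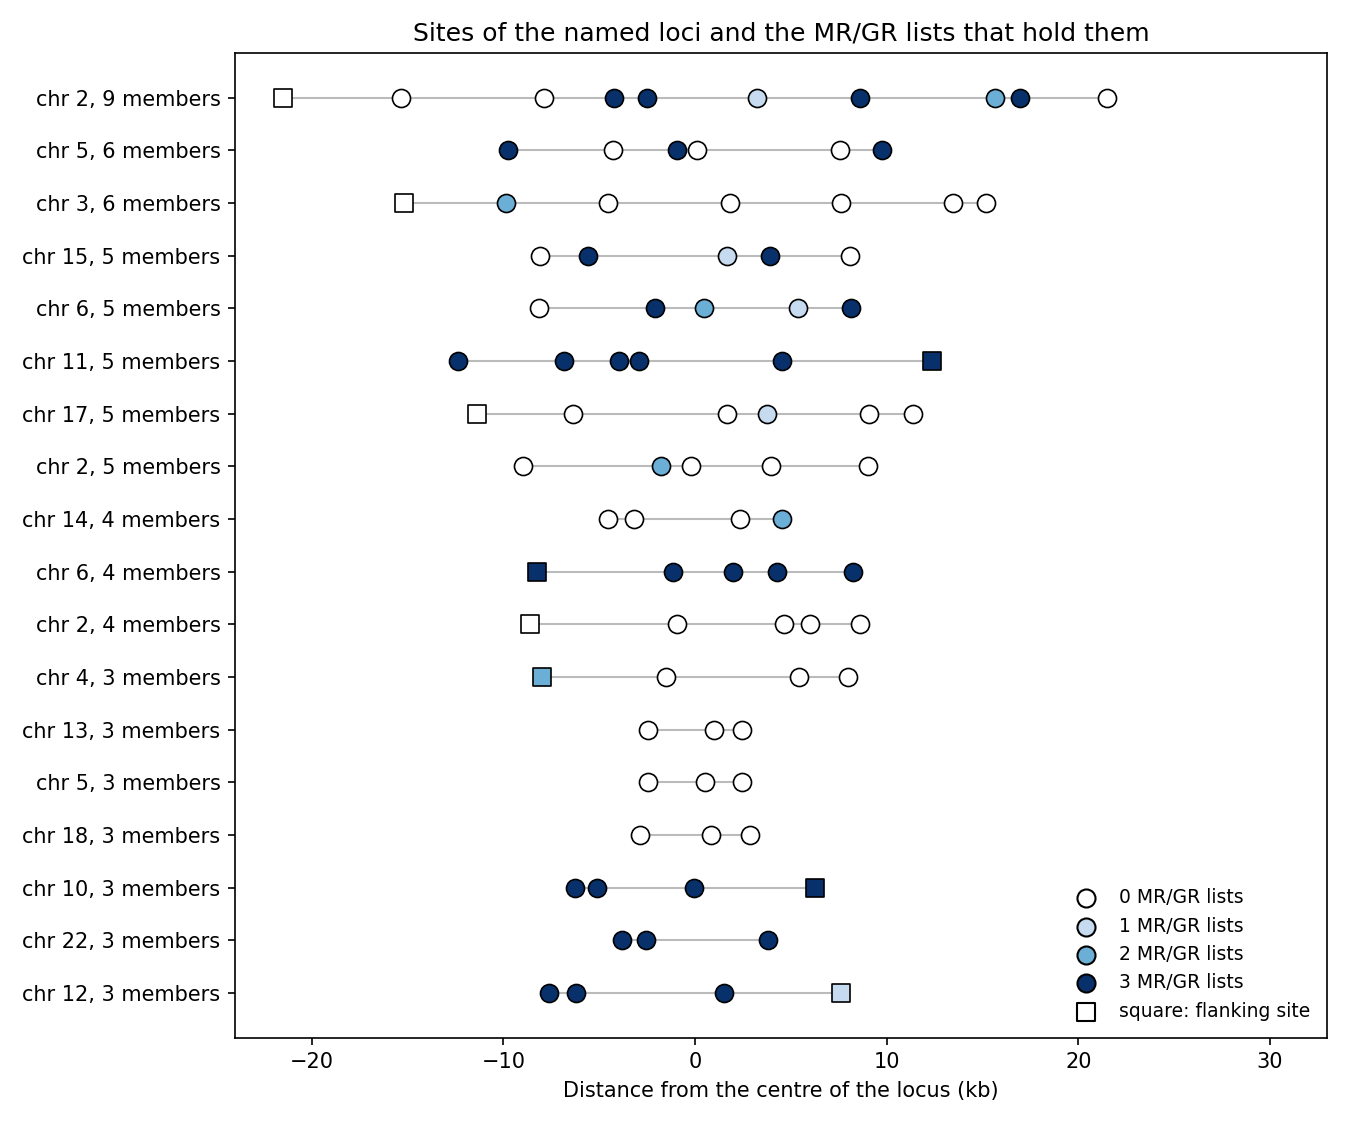
Sites of the 18 named loci by distance from the centre of the locus in kb. Circles are members and squares flanking sites; the darker the fill, the more of the 3 MR/GR lists held the site, from white (0) to dark blue (3). In the chromosome 2 locus of 9 members, the dark sites lie in the interior, among paler ones and a white one, and the end sites are white.

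Few clusters formed under the same rule in the MR/GR cell itself. Of 3228 sites in all 3 MR/GR lists, 52 (1.61%) had at least 2 other such sites within 10 kb, against 3.68% of the more numerous GR-cell sites. A share within a fixed 10 kb depends on the number of sites, so these shares do not compare how strongly the sites cluster. Of the 52, 44 were in all 3 GR-cell lists and 39 were clustered sites of the GR cell. For comparison, 3017 sites were in all 3 lists of both cells, beside the 3228 in all 3 MR/GR lists. Of the 843 clustered sites of the GR cell, 198 were in all 3 MR/GR lists. Inside the 413 loci lay 11 sites with MR/GR peaks and no GR-cell peak, 0.487% of the 2260 such sites, in 11 loci. A larger part of each MR/GR list lay at members, 5.68%, 3.59% and 4.41% of its peaks, than of each GR-cell list, with 2.24%, 2.73% and 3.22%. In the GR cell this share is set by the choice of members and by list length, so the difference was not tested.

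Without ligand, few peaks were called anywhere, and the clusters held almost none of them. The vehicle lists had 122, 238 and 228 peaks in the GR cell and 132, 11 and 40 in the MR/GR cell, so few could lie at members. In the GR cell, vehicle lists 1, 2 and 3 had a peak at 1, 0 and 2 of the 843 members and at 50, 74 and 74 of the 17280 sites with no neighbour. In the MR/GR cell, they had none at any member, with 24, 1 and 6 at sites with no neighbour and a peak in at least 1 list at 0.118% of all sites. The limit that a count of 0 of 843 allows is 0.356%, above the no-neighbour shares of the MR/GR cell (0.139% at most), so no difference was detectable in that line. At least 1 GR-cell vehicle list had a peak at 2 members (0.237%, 0.0651 to 0.861), against 0.637% of all sites and 0.735% (0.618 to 0.874) of sites with no neighbour. Both members lie in the chromosome 6 locus at 35690222 to 35700042. The member at 35695681 to 35696104 had a peak in 2 vehicle lists, which 0.244% of all sites reached, and that at 35699619 to 35700042 in 1. The mean difference between members and sites with no neighbour was -0.162 percentage points over the 6 vehicle lists. In 4 of the 6 no member had a peak, which leaves only a negative sign wherever a site with no neighbour had one, so no p-value is given for it. The sign turned with a 5-kb window (0.193 points, 85 members) or with at least 3 neighbours required (0.284 points, 99 members). The members under both settings are among the 843. Any vehicle peak at them thus lies at the same 2 sites of the chromosome 6 locus, counted over fewer members.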

How the data were processed

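GR ChIP-seq peak lists of 4 immunoprecipitation samples were used, 3 lists each; 2 input samples were not analysed here. The submitters' processing notes name the hg19 build and, with no role or setting, HOMER 4.8.3, Picard 1.115, SAMtools 1.3.1, Bowtie and Trim Galore 0.4; the calling threshold is not given in the sources used here. In each file the authors deposited a start and an end per peak, with no score. List numbers come from the deposited lists, which were called one by one. Wider peaks overlap more easily: typical widths were 354 to 424 bp in treated GR-cell lists and 280 to 304 bp in treated MR/GR lists.

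Sites, members and loci were computed with Python 3.11.15, numpy 2.4.6, pandas 2.3.3 and SciPy 1.17.1. The counts of members and loci and the retention difference were checked on simulated, isolated groups of 3 sites. Flanking sites, loci of a single member and agreement between neighbours were not simulated. Within-list differences in retention were tested by exact sign-flip permutation over lists; the same test was planned for the vehicle lists, and its p-value is not given because most of them had no peak at a member. The members, the comparisons and the rules for named loci were chosen with earlier results of these data known. Named loci were the 10 with the most members, the 5 largest of at least 3 members with no MR/GR peak at any member, the 5 largest with every member in all 3 MR/GR lists, and up to 5 with a member in at least 2 GR-cell vehicle lists (1 locus qualified). Ties went to more GR-cell peaks, then to shorter span. Gene lists, motifs and sequences were planned only for a genome of hg19 and are not analysed here.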

Additional observations from a re-analysis of the deposited data

How the results depend on the processing

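Within-list retention of members minus sites with no neighbour stayed positive under all 19 alternatives, from 6.97 points with at least 1 neighbour required to 21.7 with a 5-kb window, and from 11.9 to 13.8 with 1 list left out. Its p-value cannot pass 0.05 with 3 lists, so only size and direction bear on stability. Members and loci numbered 85 and 52 with a 5-kb window, 2864 and 1079 with 20 kb, 5655 and 2564 with at least 1 neighbour, 99 and 49 with at least 3, 1664 and 766 with sites in at least 2 GR-cell lists, and 1283 and 693 with neighbours in at least 2 GR-cell lists, an alternative chosen after seeing the data. Leaving out 1 GR-cell list gave 870 to 1400 members and 425 to 647 loci. The held share of members, 33.9%, was 47.0% with at least 1 MR/GR list and 23.5% with all 3, and 23.7% to 33.7% with 1 list left out. Loci with a held member went from 62.7% to 76.1% and 48.8% under those criteria, to 44.8% with at least 1 neighbour, and to between 48.8% and 62.7% with 1 list left out. The difference by the neighbour's state, 21.2 points, was 15.6 with at least 3 neighbours and 16.9 to 26.8 with 1 list left out. The vehicle difference of -0.162 points became 0.193 with a 5-kb window and 0.284 with at least 3 neighbours, and lay between -0.194 and -0.108 with 1 list left out. Some of these shifts follow from the definitions. Asking for at least 1 MR/GR list can only raise the held shares. Asking for all 3, or for both remaining lists when 1 MR/GR list is left out, can only lower them. The positive vehicle differences can rest only on the 2 members with a vehicle peak. The cause of the other shifts was not tested. Of 36 alternatives for named loci, 33 stayed within the counting interval; with all 3 MR/GR lists required, the loci led by 156822333 (chromosome 3), 20683089 (chromosome 2) and 80848235 (chromosome 14) had 0 held members. Every site in 3 GR-cell lists already had exactly 1 peak per GR-cell list, so that alternative changed nothing. No pairing of GR-cell lists with MR/GR-cell lists was possible, because each difference is already taken within a list and the members need all 3 GR-cell lists at once. The correlation between same-numbered treated lists of the GR and MR/GR cells was 0.103, -0.0249 and -0.00675. Between differently numbered ones it ran from -0.126 to 0.111. A low value here does not mean that the lists share few sites: 3017 sites were in all 3 lists of both cells. Without read depth or peak heights, a missing peak cannot be told from a weak one.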
